A study of Mus musculus with 8 samples.

Results

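The genes described here are 44 enzymes of glycolysis, of pyruvate use and of the tricarboxylic acid (TCA) cycle, taken by symbol from the 55341 gene symbols counted in each library. All 44 symbols were found, and all 44 passed the filter on low counts. RNA came from the nuclei of GABAergic neurons, the inhibitory neurons of the mouse cortex, which carried a Cre-dependent nuclear fluorescent reporter and were collected with a cell sorter. The promoter that drives Cre and the exact age of the mice are not given in the sources used here, beyond the word juvenile. The PTU group (mice 9, 10, 11 and 12) was hypothyroid, because the pregnant mothers had received propylthiouracil (PTU), a drug that blocks thyroid hormone synthesis. The PTU+TH group (mice 13, 14, 15 and 16) was made hypothyroid in the same way and was injected into the peritoneum with thyroid hormone (TH), and brains were collected 24 h later. Both groups thus share PTU, and no euthyroid group enters the comparison. Each group has 4 libraries, with 1 library per mouse. The comparison asks how transcripts of central carbon metabolism differ 24 h after TH is given back.

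Glycolysis splits glucose into pyruvate in the cytosol. Pyruvate is then either reduced to lactate or carried into the mitochondrion, where the pyruvate dehydrogenase complex turns it into acetyl-CoA for the TCA cycle. Pyruvate carboxylase and the malic enzymes link pyruvate to the cycle intermediates oxaloacetate and malate. Fast-spiking inhibitory neurons are known for a high energy demand, and in liver malic enzyme is a classic TH-responsive gene. In nuclear RNA the level of a gene reflects recent transcription and RNA held in the nucleus more than the cytosolic pool that is translated.

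Levels are given as CPM, the count of a gene per 1e+06 counts of its library after scaling. Library totals lay between 21.8e+06 and 29.1e+06 counts, and the 44 genes together took 0.582% to 0.703% of the counts of a library. Hr, a direct TH target, stood at 1.05 to 2.22 CPM in PTU and at 24.7 to 28.5 CPM in PTU+TH. The GABAergic marker list summed to 3385 to 4873 CPM in PTU, against 3563 to 4546 CPM in PTU+TH, with 1 of its 7 genes, Dlx1, listed at 0. Excitatory neuron markers summed to 37.1 to 106.6 CPM in PTU, against 45.7 to 120.3 CPM in PTU+TH, and astrocyte markers to 126.4 to 242.4 and 128.1 to 369.5 CPM. Oligodendrocyte markers summed to 96.4 to 123.5 and 94.5 to 193.5 CPM, their precursors' to 8.27 to 24.0 and 10.4 to 33.0 CPM, microglia markers to 52.4 to 71.2 and 60.6 to 78.0 CPM, and endothelial markers to 33.6 to 152.3 and 33.6 to 108.5 CPM. The ranges of the groups overlapped for each of these 7 lists, 0 list members were called, and their part in the results below was not tested. Only Gfap among the astrocyte markers and P2ry12 among the microglia markers were listed at 0. Counts of 4 Y-linked genes were 0 in PTU+TH mice 15 and 16 and above 0 in the other 6 libraries. In a bulk library, fewer cells of a type and less RNA per cell cannot be told apart.

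Liver-type phosphofructokinase, Pfkl, was the 1 of 44 genes that differed between the groups at an adjusted p under 0.05, and it was lower in PTU+TH. Over all 17355 genes tested, 2.12% were called at that threshold (1.49% higher and 0.634% lower), so 1 call among 44 is near the background. No member was called higher. By unadjusted p under 0.05, 10 members were higher (22.7%, against 6.59% of all genes) and 2 were lower (4.55%, against 6.17%). The count of 10 moved with single libraries and with the scaling. It was 17 without PTU mouse 9 (against 9.44% of all genes in that fit), 6 without PTU mouse 12 (5.74%), and 4 without PTU mouse 10 (6.51%), without PTU+TH mouse 14 (5.92%) or with library totals as the only scaling (5.38%). In the other fits that left out 1 library it was 7. In 6 members every PTU+TH library lay above every PTU library (13.6%, against 4.68% of all genes), and in 1, Pfkl, every PTU+TH library lay below (2.27%, against 4.03%), where 8.71% of all genes did not overlap in either direction. DESeq2 called 4 members (Pfkl, Ldhb, Pdhb and Me3), against 4.39% of the 16433 genes to which it gave an adjusted p. A fit with a covariate for the sets of mice 9, 10, 13, 14 and 11, 12, 15, 16 called the same 4, against 3.7% of all genes. The labels do not give these sets. They were taken with earlier results of these data known, and they put each library with the one most like it in its group, so they are not a factor of the design. The fitted log2 fold change of PTU+TH over PTU was above 0 in 30 of the 44 genes (68.2%, against 48.6% of all genes), with a median of 0.11 against -0.007 over all genes. The 17 genes of glycolysis and lactate metabolism had a median of 0.03, with 10 above 0. The 19 genes of the pyruvate dehydrogenase complex and the TCA cycle had a median of 0.16, with 15 above 0. These counts describe a set of genes that share libraries and pathways, and the members are not replicates of each other.

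**Figure D1:**
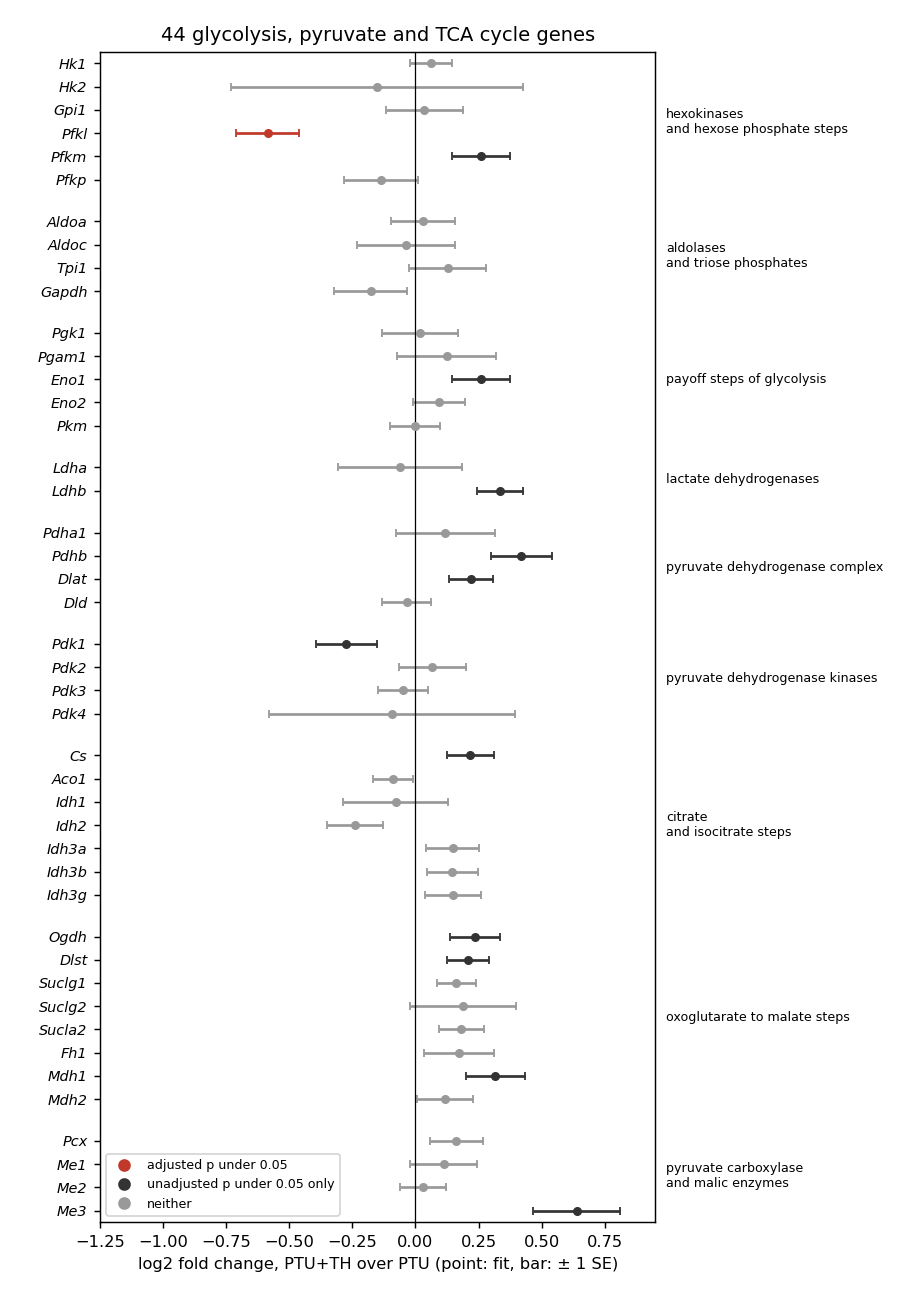
Log2 fold change of PTU+TH over PTU for the 44 genes in pathway order (x axis; point, edgeR estimate; bar, ± 1 SE; 4 mice per group). Pfkl, at -0.59, is the gene called at an adjusted p under 0.05. The 8 members grouped as oxoglutarate to malate, with Mdh1 and Mdh2 but without Dld or succinate dehydrogenase, lie between 0.12 and 0.32.

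The promoters of the genes that the results turn on are given first: Pfkl, the called member, Ldhb and Me3, the members with the next lowest adjusted p, and Pfkfb3, the called gene that makes the activator of phosphofructokinase. Each is the 250 bases before the most upstream listed RefSeq start (build GRCm38.p6), written 5′ to 3′ on the strand of the gene. They lie at chr10:78009808-78010057 (Pfkl, minus strand), chr6:142507958-142508207 (Ldhb, minus strand), chr7:89632568-89632817 (Me3, plus strand) and chr2:11553930-11554179 (Pfkfb3, minus strand). Capitals mark the letters AGGTCA, the hexamer of a TH receptor half-site, or ACGTG, the core of a hypoxia response element, on either strand.
Pfkl: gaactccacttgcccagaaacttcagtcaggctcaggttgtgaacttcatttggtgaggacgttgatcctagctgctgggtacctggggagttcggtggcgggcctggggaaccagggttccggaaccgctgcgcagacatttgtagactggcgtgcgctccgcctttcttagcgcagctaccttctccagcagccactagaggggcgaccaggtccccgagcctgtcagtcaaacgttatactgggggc
Ldhb: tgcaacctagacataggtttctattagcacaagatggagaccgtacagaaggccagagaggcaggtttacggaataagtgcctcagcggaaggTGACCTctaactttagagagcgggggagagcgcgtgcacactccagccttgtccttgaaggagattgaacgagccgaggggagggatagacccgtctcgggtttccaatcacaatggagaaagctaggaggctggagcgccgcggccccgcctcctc
Me3: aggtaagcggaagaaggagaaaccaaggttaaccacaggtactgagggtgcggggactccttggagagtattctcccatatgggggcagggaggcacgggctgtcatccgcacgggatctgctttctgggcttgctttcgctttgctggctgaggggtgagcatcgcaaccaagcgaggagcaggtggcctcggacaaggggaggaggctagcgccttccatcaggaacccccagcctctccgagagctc
Pfkfb3: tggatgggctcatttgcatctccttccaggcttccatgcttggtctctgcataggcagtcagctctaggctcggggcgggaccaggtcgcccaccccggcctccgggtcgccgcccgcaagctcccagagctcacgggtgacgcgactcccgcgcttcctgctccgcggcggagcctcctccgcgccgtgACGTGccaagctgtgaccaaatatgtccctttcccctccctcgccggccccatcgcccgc
In these windows AGGTCA occurred 1 time in Ldhb, as its reverse complement, and ACGTG 1 time in Pfkfb3. The hexamer AGGTCA was in the same window of 4 of the 42 member genes with a listed promoter (Eno1, Fh1, Ldhb and Sucla2, 9.52%) and in 13.8% of 27025 promoters. For ACGTG the shares were 12 of 42 (28.6%) and 16.5%. A direct repeat of AGGTCA with 4 bases between the copies was in 0 of the 42 and in 3 of the 27025. The Pfkl and Me3 windows lie inside the longer gene bodies of GENCODE M21, and 148 bases of the Pfkfb3 window do. A match of letters is a description of the window and says nothing of binding.

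The first steps of glycolysis trap glucose as a phosphate and commit it to the pathway. Phosphofructokinase catalyses the committed step, and its subunits come from Pfkl (liver type), Pfkm (muscle type) and Pfkp (platelet type). Pfkl (chromosome 10, 77986947 to 78010083, minus strand, a gene body that no other annotated gene overlaps) stood at 171.1, 164.8, 167.7 and 203.5 CPM in PTU mice 9 to 12, against 137.9, 132.4, 98.4 and 102.2 CPM in PTU+TH mice 13 to 16. The groups did not overlap, and the lowest values were those of mice 15 and 16, the libraries without Y-linked counts. Pfkl fell from 177 ± 17.99 to 118 ± 20.3 CPM (SD over 4 mice a group), which is a log2 fold change of -0.59 (SE 0.12, edgeR quasi-likelihood adjusted p = 0.027). In the 6 libraries with Y-linked counts the log2 fold change was -0.39 with an edgeR adjusted p of 0.344, and mice 13 and 14 were still below all PTU mice. The call was also lost without PTU mouse 10 (0.0533), PTU mouse 12 (0.0855), PTU+TH mouse 15 (0.102) or PTU+TH mouse 16 (0.105), and it held under the other 11 of 16 alternatives.

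Pfkm stood at 267.6, 236.1, 255.1 and 238.7 CPM across PTU mice, against 290.6, 351.2, 300.7 and 250.9 CPM across PTU+TH mice. Of the PTU+TH libraries, mouse 16 lay within the PTU range and the other 3 above it (log2 fold 0.26 ± 0.12 SE, adjusted p = 0.365 by edgeR). Pfkp had the most counts of all 44 genes, with 1337, 1431, 1538 and 1538 CPM across PTU mice, against 1333, 1400, 1200 and 1381 CPM across PTU+TH mice. Its groups overlapped (log2 fold -0.14 ± 0.15 SE, adjusted p = 0.802 by edgeR). Per kb of exon, the level over the 8 libraries was 104 ± 8.35 CPM for Pfkp, 82.0 ± 11.6 for Pfkm and 22.1 ± 5.43 for Pfkl (SD, n = 8). Per kb of gene body, Pfkp stood at 20.2 ± 1.62 CPM (SD, n = 8), and the order of the other 2 turned between the groups. Pfkl had 7.64 ± 0.778 and Pfkm 6.26 ± 0.371 CPM per kb of gene body in PTU, and Pfkl 5.09 ± 0.878 and Pfkm 7.49 ± 1.04 in PTU+TH (SD over 4 mice a group). Both scales are given because the labels do not say whether reads from introns were counted.

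Hexokinase, which phosphorylates glucose, was present almost wholly as Hk1, the brain form. Hk1 averaged 128 ± 7.38 CPM in PTU, against 134 ± 6.28 CPM in PTU+TH, and Hk2, the insulin-responsive form of muscle, 0.67 ± 0.33 and 0.61 ± 0.54 CPM (SD over 4 mice a group). Hk1os overlaps Hk1 on the other strand, which leaves 79.2% of the gene body free, so the counts of Hk1 are less certain. Neither was called (adjusted p = 0.857 and 0.964 by edgeR). Gpi1, the isomerase that makes fructose phosphate, lay between 470.2 and 718.1 CPM in PTU and between 598.2 and 694.3 CPM in PTU+TH (log2 fold 0.03, adjusted p = 0.97 by edgeR). Its processed pseudogene Gm1840 matches 50.2% of the Gpi1 transcript at 97.7% identity and had 39442 counts against 120004 for Gpi1, so reads may be split between them, and the level of Gpi1 is uncertain.

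Aldolase cleaves the hexose bisphosphate, and Tpi1 and Gapdh process the triose phosphates that result. Aldoa, the muscle and general form, stood at 187.6, 132.3, 129.5 and 125.4 CPM across PTU mice, against 129.6, 156.2, 150.1 and 150.7 CPM across PTU+TH mice. Mouse 9 was high and the groups overlapped (log2 fold 0.03, adjusted p = 0.97 by edgeR). The symbol Aldoa covers 2 annotated gene identifiers that overlap Fam57b, so its counts are uncertain. Aldoc, the brain form and a gene that astrocytes express strongly, lay between 14.2 and 22.9 CPM in PTU and between 13.0 and 22.9 CPM in PTU+TH (adjusted p = 0.976 by edgeR). Tpi1, the triose phosphate isomerase, had 44.5 to 79.1 and 56.5 to 67.5 CPM, and Gapdh, the dehydrogenase of this step, 21.1 to 32.0 and 21.3 to 27.6 CPM (adjusted p = 0.832 and 0.707 by edgeR). For Gapdh, 154 annotated copies matched at least 50% of the transcript at 90% identity or more, and its counts are uncertain.

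The later steps of glycolysis yield ATP and pyruvate. Eno1, the general enolase, stood at 93.4, 103.8, 71.4 and 73.5 CPM across PTU mice, against 106.4, 105.0, 97.6 and 100.6 CPM across PTU+TH mice. Mice 11 and 12 were low, mouse 10 lay within the PTU+TH range, and the gene was not called (log2 fold 0.26 ± 0.12 SE, adjusted p = 0.367 by edgeR). Eno2, the neuronal enolase and the member of this group with the most counts, stood at 354.2, 331.4, 328.5 and 319.0 CPM across PTU mice, against 357.0, 385.9, 335.6 and 342.0 CPM across PTU+TH mice. Its groups overlapped through mouse 9 (log2 fold 0.09 ± 0.10 SE, adjusted p = 0.811 by edgeR). The neuronal form was the higher one per length, with 73.2 ± 4.50 CPM per kb of exon for Eno2 and 17.5 ± 2.59 for Eno1, and 35.8 ± 2.20 and 7.73 ± 1.15 CPM per kb of gene body (SD, n = 8). Eno1 has 6 annotated near-identical copies and Eno2 has 0. The copy Gm4735 matches 64.2% of the Eno1 transcript at 99.6% identity and had 743 counts against 18285 for Eno1. Reads of Eno1 may be split or lost, so its level and this comparison are less certain. Pgk1, the X-linked phosphoglycerate kinase, lay between 12.0 and 15.0 CPM in PTU and between 10.7 and 16.4 CPM in PTU+TH, and Pgam1, the mutase, between 9.15 and 19.3 and between 12.6 and 16.5 CPM. Pkm, the pyruvate kinase of brain and muscle, had the smallest difference of the 44 genes, at 189 ± 21.2 and 188 ± 8.31 CPM (SD over 4 mice a group; log2 fold -0.003, adjusted p = 0.996 by edgeR).

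Lactate dehydrogenase interconverts pyruvate and lactate. Its heart-type subunit Ldhb (chromosome 6, 142490249 to 142507957, minus strand) stood at 119.6, 105.5, 100.9 and 97.0 CPM across PTU mice, against 131.2, 143.6, 131.1 and 127.1 CPM across PTU+TH mice. The groups did not overlap, and mouse 9 was the PTU library nearest to PTU+TH. The means were 106 ± 9.87 and 133 ± 7.18 CPM (SD over 4 mice a group), a log2 fold change of 0.33 (SE 0.09) that did not pass (adjusted p = 0.0855 by edgeR). Across 16 alternatives the adjusted p of Ldhb lay between 0.0208, without PTU mouse 9, and 0.327, with library totals as the only scaling, and it passed in 4. Its processed pseudogene Gm5514 matches 76.8% of the transcript at 98% identity and had 4433 counts against 23188. With the pseudogene counts added, the log2 fold change of Ldhb was 0.33 with an edgeR adjusted p of 0.161. The muscle-type subunit Ldha lay between 57.4 and 139.9 CPM in PTU, highest in mouse 9, and between 71.6 and 95.5 CPM in PTU+TH (log2 fold -0.06 ± 0.25 SE, adjusted p = 0.966 by edgeR). Per kb of exon Ldhb stood at 76.1 ± 10.7 and Ldha at 25.8 ± 7.64 CPM (SD, n = 8). Per kb of gene body Ldhb and Ldha lay within their spread in PTU, at 5.97 ± 0.558 and 6.17 ± 2.63 CPM, while Ldhb was the higher one in PTU+TH, at 7.53 ± 0.406 against 5.92 ± 0.719 CPM (SD over 4 mice a group).

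The pyruvate dehydrogenase complex has an E1 enzyme made of Pdha1 and Pdhb subunits, an E2 acetyltransferase, Dlat, and an E3 dehydrogenase, Dld, that it shares with the oxoglutarate dehydrogenase complex. Pdhb (chromosome 14, 8165996 to 8173025, minus strand) had the most counts of the complex, with 149.9, 150.9, 129.5 and 138.1 CPM across PTU mice, against 216.8, 215.3, 178.7 and 149.6 CPM across PTU+TH mice. Mouse 16 lay within the PTU range and the other 3 PTU+TH libraries above it. The log2 fold change was 0.42 (SE 0.12, edgeR adjusted p = 0.111), and the call was made under 3 of 16 alternatives, among them the fit without mouse 16 (0.0453). The pseudogene Gm6123, at 97% identity over 71.2% of the transcript, had 4519 counts against 32381 for Pdhb. With its counts added the adjusted p was again 0.111. Dlat stood at 109.6, 107.8, 109.5 and 110.5 CPM across PTU mice, against 124.0, 140.1, 111.8 and 133.9 CPM across PTU+TH mice. The PTU libraries were close together and every PTU+TH library lay above them (log2 fold 0.22 ± 0.09 SE, adjusted p = 0.291 by edgeR). Pdha1, which is X-linked, averaged 34.4 ± 11.6 and 37.4 ± 4.91 CPM, and Dld 94.1 ± 1.98 and 91.9 ± 12.0 CPM (SD over 4 mice a group). Neither was called (adjusted p = 0.899 and 0.949 by edgeR).

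Pyruvate dehydrogenase kinases switch the complex off by phosphorylating E1. Pdk1 had the most counts of the 4, with 62.1, 58.3, 45.0 and 45.7 CPM across PTU mice, against 48.3, 40.5, 40.4 and 45.5 CPM across PTU+TH mice. Mice 9 and 10 lay above all other libraries, and mice 11 and 12 lay within the PTU+TH range (log2 fold -0.27 ± 0.12 SE, adjusted p = 0.351 by edgeR). Pdk2 averaged 20.6 ± 3.59 and 21.6 ± 1.25 CPM and the X-linked Pdk3 32.8 ± 2.17 and 31.7 ± 2.57 CPM (SD over 4 mice a group). Pdk4, the kinase that fasting induces in many tissues, was close to the lower limit of detection, at 0.26 to 1.09 CPM in PTU, against 0.43 to 0.77 CPM in PTU+TH, with 125 counts in all. Pdk2, Pdk3 and Pdk4 were not called (adjusted p = 0.92, 0.921 and 0.976 by edgeR).

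Citrate synthase, Cs, starts the TCA cycle. It stood at 167.0, 143.1, 146.5 and 134.1 CPM across PTU mice, against 168.3, 180.5, 175.8 and 161.9 CPM across PTU+TH mice. The groups overlapped through mouse 9 (log2 fold 0.22 ± 0.09 SE, adjusted p = 0.337 by edgeR). The NAD-linked isocitrate dehydrogenase of the cycle is built from Idh3a, Idh3b and Idh3g. The X-linked Idh3g had the most counts of this group, with 214.5, 225.3, 167.7 and 208.6 CPM across PTU mice, against 232.2, 250.2, 210.9 and 211.8 CPM across PTU+TH mice. Mice 15 and 16 lay within the PTU range and mice 13 and 14 above it (log2 fold 0.15 ± 0.11 SE, adjusted p = 0.671 by edgeR). The other 2 subunits had like estimates, 0.15 for both Idh3a and Idh3b, with edgeR adjusted p-values of 0.649 and 0.642. The NADP-linked enzymes Idh1 (cytosolic) and Idh2 (mitochondrial) had log2 fold changes of -0.08 and -0.24, and Aco1, the cytosolic aconitase that also acts as an iron sensor, -0.09 (adjusted p = 0.944, 0.395 and 0.735 by edgeR). Idh2 was lowest in mice 15 and 16, at 85.3 and 82.7 CPM against 104.5 and 105.9 in mice 14 and 13 and 93.5 to 120.7 in PTU.

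The group of steps from oxoglutarate to malate has 8 members here, and it also holds Mdh1 and Mdh2, which act on malate itself. These 8 had log2 fold changes above 0 (against 48.6% of all genes), between 0.12 and 0.32 with a median of 0.19. Of them, 0 were called. With 1 library left out the log2 fold change ranged over 0.061 to 0.245 for Mdh2, 0.091 to 0.325 for Fh1 and 0.08 to 0.387 for Suclg2. Succinate dehydrogenase, which works among these steps, is outside the 44 genes. Its subunits Sdha, Sdhb, Sdhc and Sdhd had log2 fold changes of -0.04, 0.08, 0.16 and 0.20, with overlapping groups and no call (named outside the rule, after their values were seen), and Dld, the shared E3, had -0.03. Ogdh, the E1 enzyme of the oxoglutarate dehydrogenase complex and the member with the most counts here, stood at 227.2, 234.9, 244.2 and 250.6 CPM across PTU mice, against 277.9, 313.4, 255.6 and 279.5 CPM across PTU+TH mice. Every PTU+TH library lay above every PTU library, the nearest being mice 15 and 12 (log2 fold 0.24 ± 0.10 SE, adjusted p = 0.33 by edgeR). Dlst, the E2 enzyme of the same complex, stood at 167.1, 163.6, 167.5 and 169.1 CPM across PTU mice, against 187.0, 206.9, 188.0 and 189.5 CPM across PTU+TH mice. These groups did not overlap either (log2 fold 0.21 ± 0.08 SE, adjusted p = 0.293 by edgeR). Suclg1, the shared alpha subunit of succinyl-CoA ligase, lay between 54.9 and 58.8 CPM in PTU and between 61.5 and 65.2 CPM in PTU+TH, again without overlap (log2 fold 0.16 ± 0.08 SE, adjusted p = 0.405 by edgeR). Its partner subunits are Sucla2, for the ATP-forming enzyme, at 53.2 ± 3.81 and 60.4 ± 3.77 CPM, and Suclg2, for the GTP-forming enzyme, at 6.61 ± 1.81 and 7.52 ± 1.30 CPM (SD over 4 mice a group; adjusted p = 0.425 and 0.81 by edgeR). Per kb of exon the ATP-forming subunit was the higher one, with 14.2 ± 1.30 CPM for Sucla2 and 1.53 ± 0.33 for Suclg2, and the order was the same per kb of gene body (0.802 ± 0.0733 and 0.029 ± 0.0063 CPM; SD, n = 8). Parts of Sucla2 and Fh1, like Pdk2 above, are overlapped by genes of the other strand (67.6%, 79.2% and 63.4% of their bodies are free), so their counts are less certain. Fh1, the fumarase, had a log2 fold change of 0.17 (SE 0.14, edgeR adjusted p = 0.692).

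Malate dehydrogenase exists as a cytosolic form, Mdh1, and a mitochondrial form, Mdh2, and both serve the malate-aspartate shuttle that carries reducing equivalents into mitochondria. Mdh1 stood at 269.9, 203.2, 212.1 and 195.0 CPM across PTU mice, against 256.9, 290.9, 279.4 and 269.5 CPM across PTU+TH mice. Mouse 9 was the 1 PTU library within the PTU+TH range (log2 fold 0.32 ± 0.12 SE, adjusted p = 0.238 by edgeR). Without mouse 9 the log2 fold change of Mdh1 was 0.44 with an edgeR adjusted p of 0.0219, the 1 of 16 alternatives that called it. Mdh2 averaged 113 ± 18.9 and 122 ± 6.58 CPM (SD over 4 mice a group; log2 fold 0.12, adjusted p = 0.768 by edgeR).

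Malic enzymes turn malate into pyruvate, in the cytosol (Me1) or in mitochondria (Me2 and Me3), and Pcx, pyruvate carboxylase, refills the cycle with oxaloacetate. Me3 (chromosome 7, 89632392 to 89854359, plus strand) had the largest positive estimate of the 44 genes. It stood at 204.7, 255.2, 365.2 and 339.8 CPM across PTU mice, against 391.7, 450.9, 443.9 and 527.5 CPM across PTU+TH mice. There was no overlap, and within PTU mice 9 and 10 lay below mice 11 and 12. The means were 291 ± 74.4 and 454 ± 55.9 CPM (SD over 4 mice a group), with a log2 fold change of 0.64 (SE 0.17, edgeR adjusted p = 0.0859). Over 16 alternatives the adjusted p of Me3 lay between 0.00532, with the covariate that the labels do not give, and 0.52, when mice 15 and 16 were left out, and it passed in 5. Me1, the cytosolic enzyme known as a TH-responsive gene of liver, was steady at 15.3 to 15.8 CPM in PTU and ranged from 13.2 to 18.7 CPM in PTU+TH (log2 fold 0.11 ± 0.13 SE, adjusted p = 0.832 by edgeR). Me2 and Pcx had log2 fold changes of 0.03 and 0.16 (adjusted p = 0.954 and 0.605 by edgeR). Per kb of exon Me3 stood at 25.5 ± 7.25 CPM, Me2 at 9.15 ± 0.66 and Me1 at 4.20 ± 0.47 (SD, n = 8). Per kb of gene body Me3 and Me2 lay within their spread in PTU, at 1.31 ± 0.335 and 1.44 ± 0.136 CPM, while Me3 was the higher one in PTU+TH, at 2.04 ± 0.252 against 1.47 ± 0.0821 CPM (SD over 4 mice a group).

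**Figure D2:**
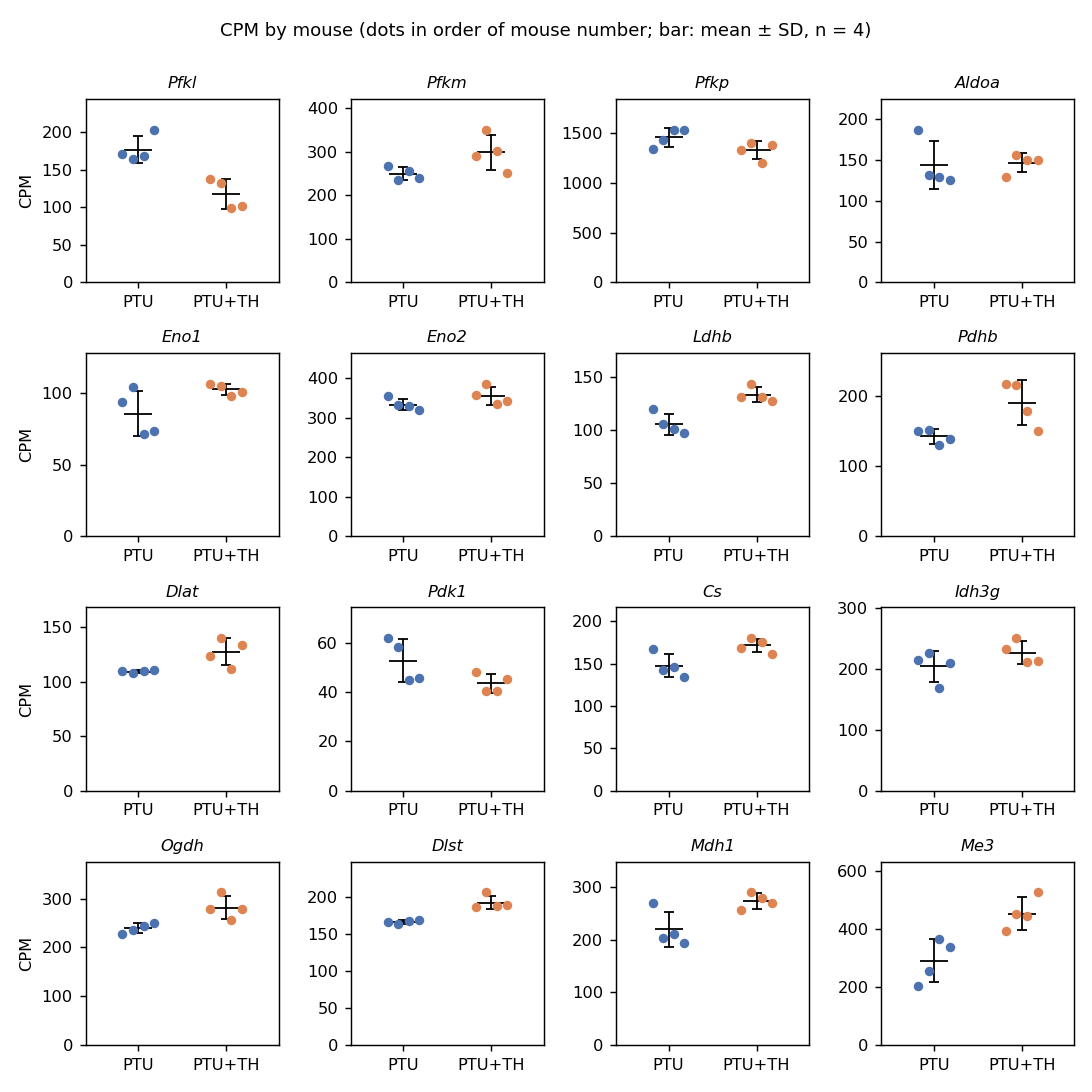
CPM (y axis, from 0) in each mouse of the PTU and PTU+TH groups for the members described library by library (dots in order of mouse number; bars, mean ± SD, n = 4). Pfkl, Ldhb, Dlat, Ogdh, Dlst and Me3 show groups that do not overlap, and PTU mouse 9 is the leftmost dot, high in Aldoa (187.6 CPM), Cs (167.0 CPM) and Mdh1 (269.9 CPM).

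The 4 X-linked members, Pgk1, Pdha1, Pdk3 and Idh3g, were looked at in mice 15 and 16, which had no Y-linked counts. In these mice Pdha1 stood at 43.5 and 37.3 CPM, Pdk3 at 28.1 and 32.8 CPM and Pgk1 at 10.7 and 14.9 CPM. The PTU ranges were 23.5 to 50.8 CPM for Pdha1, 30.8 to 35.9 CPM for Pdk3 and 12.0 to 15.0 CPM for Pgk1, so mouse 15 lay below PTU for Pdk3 and Pgk1 and the other values lay inside. PTU mouse 9 held the highest PTU value in 21 of the 44 members (47.7%, against 29.6% of all genes tested), among them Aldoa, Tpi1, Pkm, Ldha, Pdha1, Mdh1 and Mdh2. PTU mouse 12 held the lowest PTU value in 17 members (38.6%, against 24.6% of all genes), and PTU+TH mouse 14 the highest PTU+TH value in 17 (38.6%, against 23.1%). Without PTU mouse 9, 34 members were above 0, with a median log2 fold change of 0.16, and 3 were called (Ldhb and Mdh1 higher, Pfkl lower), against 2.84% of all genes in that fit. Without PTU mouse 11, 26 members were above 0 (median 0.09) and 2 were called, against 1.66% of all genes. Without PTU mouse 12, 28 were above 0 (median 0.07) and 0 were called, against 1.32% of all genes. Without PTU+TH mouse 14, 32 were above 0 (median 0.09) and 1 was called, against 1.28% of all genes.

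Ratios between members of the same library do not depend on how libraries are scaled. For 14 pairs of isozymes or paired enzymes the log2 ratio of counts was compared between the groups by an exact two-sided permutation test, whose smallest p over 70 arrangements is 0.0286. The groups did not overlap in 4 of the 14, each at an exact p of 0.0286 and an adjusted p of 0.1 over the 14 ratios, so 0 passed 0.05 after adjustment. At least 9 of the 14 would have to reach the smallest p for any to pass, so that count says little. The ratio Pfkl/Pfkm was 0.639, 0.698, 0.658 and 0.852 in PTU, against 0.474, 0.377, 0.327 and 0.407 in PTU+TH, lower in 4 of 4 libraries (log2 difference -0.85). The ratio Me3/Me2 was 3.46, 4.14, 5.11 and 4.82 in PTU, against 6.23, 6.38, 6.83 and 7.56 in PTU+TH (log2 difference 0.64). The cytosolic to mitochondrial ratio Mdh1/Mdh2 was 1.92, 1.96, 1.97 and 1.95 in PTU, against 2.28, 2.30, 2.21 and 2.17 in PTU+TH (log2 difference 0.20). It was the tightest of these 4 in PTU, and mouse 9, high for both genes, did not stand apart in their ratio. Pdk2/Pdk1 was 0.393, 0.384, 0.361 and 0.420 in PTU, against 0.437, 0.551, 0.565 and 0.440 in PTU+TH (log2 difference 0.35).

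The other 10 ratios overlapped between the groups. Pfkp/Pfkm had a log2 difference of -0.39 (exact permutation p = 0.0571, adjusted 0.16). For Ldhb/Ldha the log2 difference was 0.32 (exact permutation p = 0.286, adjusted 0.55), with a ratio of 0.855 in mouse 9 against 1.22 to 1.69 in the other PTU mice and 1.37 to 1.83 in PTU+TH. Eno1/Eno2 differed by 0.19, Idh1/Idh2 by 0.22, Pdk3/Pdk1 by 0.21 and Pdk4/Pdk1 by 0.39 on the log2 scale, and Hk2/Hk1 by -0.41. The smallest differences were those of Aldoc/Aldoa, Me1/Me2 and Suclg2/Sucla2, at -0.08, 0.07 and 0.02. Adjusted exact permutation p-values of these 8 lay between 0.533 and 0.886.

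**Figure D3:**
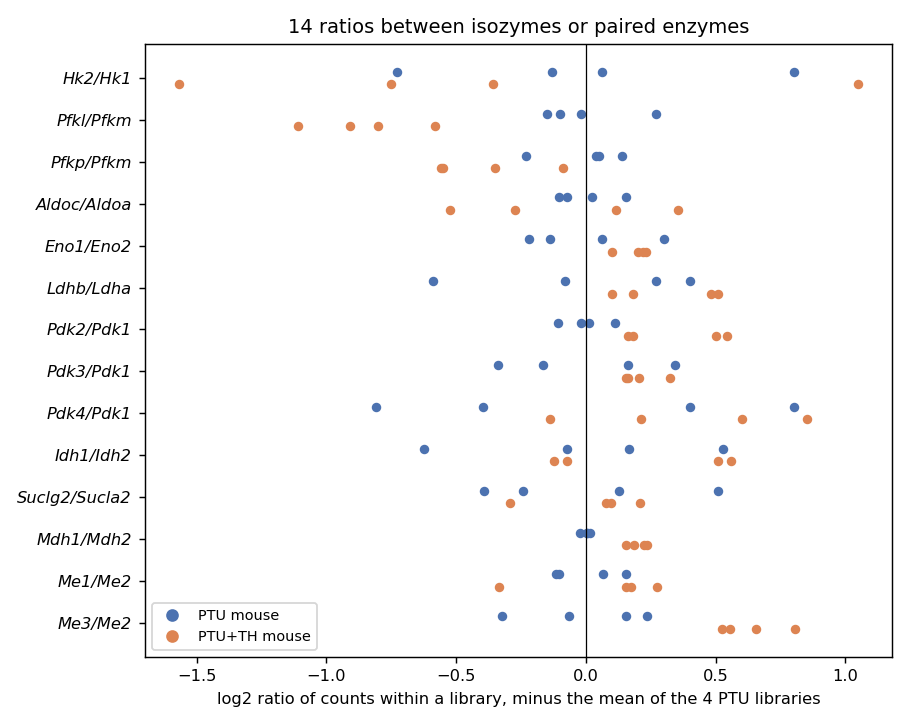
Log2 ratio of the counts of 2 genes within a library, minus the mean of the 4 PTU libraries (x axis), for 14 gene pairs (rows; 1 dot per mouse). The groups separate in Pfkl/Pfkm, Pdk2/Pdk1, Mdh1/Mdh2 and Me3/Me2, with log2 differences of -0.85, 0.35, 0.20 and 0.64.

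Beyond the members, 81 further genes of 7 lists around the pathway were examined, of which 73 were tested. In all, 36 had a log2 fold change above 0 (49.3%, against 48.6% of all genes), 1 was called higher and 1 lower, which is near the 2.12% called over all genes, and their median was 0.0. The genes named are those called and the one with the smallest p of each list. Pfkfb3 (chromosome 2, 11471433 to 11554077, minus strand) makes the fructose bisphosphate that activates phosphofructokinase. It stood at 17.1, 17.9, 16.1 and 14.1 CPM across PTU mice, against 24.2, 22.6, 25.8 and 24.2 CPM across PTU+TH mice. Without overlap, Pfkfb3 rose from 16.3 ± 1.64 to 24.2 ± 1.28 CPM (SD over 4 mice a group; log2 fold 0.57 ± 0.11 SE, adjusted p = 0.0197 by edgeR). It was called under 9 of 15 alternatives. The exceptions were library totals as the only scaling (0.109), the 6 libraries with Y-linked counts (0.258, log2 fold change 0.52) and the fits without PTU mouse 12 (0.0619) or PTU+TH mouse 13 (0.0602), 15 (0.0808) or 16 (0.0634). Of the 5 tested genes in the list of switches between glycolysis and its reversal, 4 were above 0 and 1 was called, against 48.6% and 2.12% of all genes, and 5 genes are too few to read a share from.

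Among 11 genes of NADH shuttles and mitochondrial carriers 0 were called. Got1, the cytosolic aspartate aminotransferase that works with Mdh1 in the malate-aspartate shuttle, stood at 84.40, 60.1, 64.8 and 57.5 CPM across PTU mice, against 84.41, 101.9, 98.3 and 88.0 CPM across PTU+TH mice. The highest PTU library, mouse 9, lay just under the lowest PTU+TH library, mouse 13 (log2 fold 0.48 ± 0.12 SE, adjusted p = 0.06 by edgeR). Without mouse 9 the log2 fold change of Got1 was 0.62 and the edgeR adjusted p 0.00338, and it was called under 5 of 15 alternatives. Of the 12 genes for transport of glucose, lactate and pyruvate 0 were called. Slc2a8, an intracellular glucose transporter, had the smallest p of them, with 126.6, 131.6, 133.5 and 151.1 CPM across PTU mice, against 121.1, 118.2, 93.7 and 93.3 CPM across PTU+TH mice. No library overlapped, and mice 15 and 16 were lowest (log2 fold -0.35 ± 0.11 SE, adjusted p = 0.146 by edgeR). In the list of other isozymes and subunits, with 22 tested and 0 called, the smallest p was that of Pdp2, a phosphatase that switches pyruvate dehydrogenase back on. Pdp2 lay between 1.34 and 2.66 CPM in PTU and between 3.13 and 4.05 CPM in PTU+TH (log2 fold 0.89 ± 0.26 SE, adjusted p = 0.121 by edgeR). Pdp2 was called under 2 of 15 alternatives, DESeq2 (adjusted p = 0.0417) and the edgeR fit without PTU mouse 9 (adjusted p = 0.0331).

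**Figure D4:**
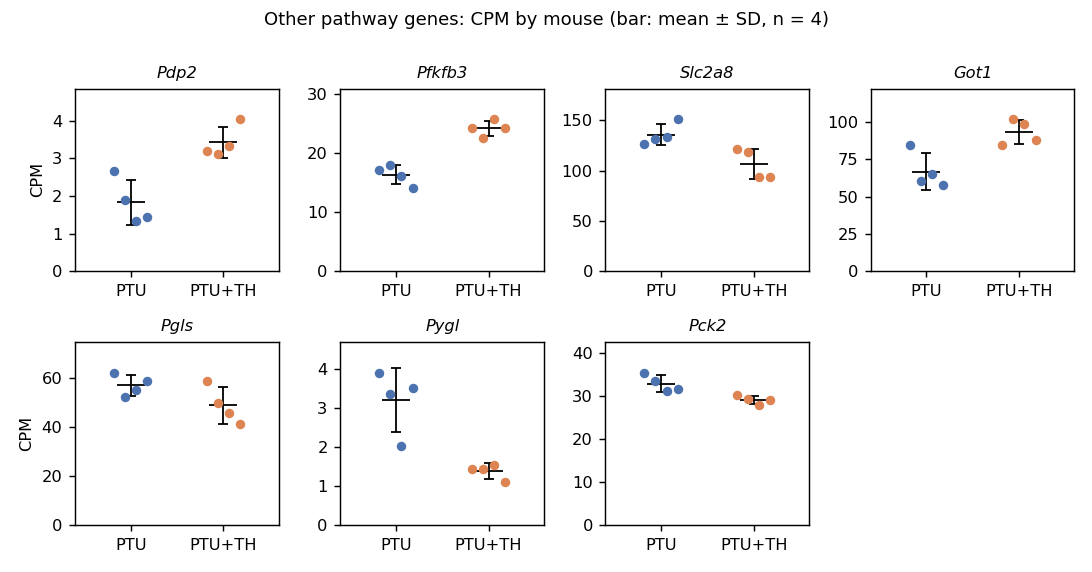
CPM (y axis, from 0) in each mouse for the further pathway genes named by the rule (dots in order of mouse number; bars, mean ± SD, n = 4). Pfkfb3 and Pygl were called at an adjusted p under 0.05, and for Pfkfb3 the PTU+TH mice lie between 22.6 and 25.8 CPM against 14.1 to 17.9 in PTU.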

How the data were processed

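Nuclear RNA of sorted cortical GABAergic neurons was sequenced with 1 library per mouse (SMART-Seq v4 cDNA and Nextera XT libraries, per the labels' protocols). The authors deposited raw counts of reads per gene symbol, with 1 file per library. Bowtie2 2.5.3 and the builds mm10 and GRCm38 are named in the submitters' processing notes, and the counting program, strand and treatment of introns are not given in the sources used here. The 55341 symbols equal those of GENCODE M21 (GRCm38), which gave positions and lengths. Of 1287 protein-coding genes inside another gene, 1271 were listed at 0, so 0 is not read as absence for such genes. Near-identical copies were sought by aligning member transcripts to all annotated transcripts (at least 90% identity over 50% of the transcript).

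The test was that of edgeR 4.0.16 under R 4.3.3 (filterByExpr, TMM scaling, robust quasi-likelihood test, group as the only term), adjusted by Benjamini-Hochberg over 17355 genes, with a call at 0.05. CPM uses the TMM-scaled library size and is given as mean ± SD, and the SE of a log2 fold change was derived from the F statistic. Isozyme ratios had 0.5 added to each count. Alternatives were RLE scaling, library totals only, DESeq2 1.42.0, limma 3.58.1 (voom with quality weights), no filter, 2 sets of mice that the labels do not give as a covariate, the 6 libraries with Y-linked counts, leaving out each library and, added after the data were seen, the addition of pseudogene counts. The members, lists and alternatives were chosen with earlier results of these data known. Values in all libraries are given, by rule, for members called or with an unadjusted p under 0.05 and for the member of each of 9 role groups with the most counts. Of other genes, those called and the smallest p of each list are named, and any named beyond this rule are marked in the text. Mice carry no further labels, and their sex and litter are not given, so group was the only term of the test. The p-values rest on the spread between mice within a group, estimated for each gene with help from the other genes. Y-linked counts were 0 in PTU+TH mice 15 and 16 and above 0 in every PTU mouse, so the groups are unbalanced in this trait. Chi-square per degree of freedom between libraries of a group was 8.87 to 79.78 in 12 pairs, so none was a copy.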

Additional observations from a re-analysis of the deposited data

Results flagged for a closer look

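Each of 130 groups of 4 values was searched for 1 library set apart from the rest by a gap that takes up most of the range (Dixon's test at 95%). By chance about 6.5 would be found, and 4 were. Pfkl in PTU mouse 12 stood at 203 CPM against 165 to 171 CPM in the other 3 PTU mice. Aldoa and Pkm were both high in PTU mouse 9, with Aldoa at 188 CPM against 125 to 132 and Pkm at 220 CPM against 176 to 181. Dlst in PTU+TH mouse 14 stood at 207 CPM against 187 to 190 CPM.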

How the results depend on the processing

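Scaling and filters left the directions of the members called in any setting (Pfkl, Ldhb, Pdhb, Mdh1 and Me3) as they were. The count of genes changed, 368, was 721 with DESeq2, 642 with the set of mice as a covariate, 58 in the 6 libraries with Y-linked counts and 182 to 499 with 1 library left out. Of the calls, 70.1% were higher in PTU+TH, with 61.2% for DESeq2 at the low end and 89.7% in the 6 libraries at the high end. Members called are given beside the share of all genes called in the same setting, or for DESeq2 of the 16433 genes given an adjusted p. Members called were 2 with library totals (1.48%), voom (2.53%) or no filter (1.52%) and 4 with DESeq2 (4.39%) or the covariate (3.7%). They were 0 in the 6 libraries (0.318%) and 0 to 3 with 1 library left out (1.03% to 2.84%). Other pathway genes called were 4 with DESeq2, 0 with library totals or in the 6 libraries, and 0 to 3 with 1 library left out. The median log2 fold of the members stayed between 0.07 and 0.16. In each case the cause was not tested. No ratio passed after adjustment in any setting, which the design nearly fixes, since at least 9 of 14 would have to separate, and with 6 libraries the smallest exact permutation p is 0.0667. No paired analysis was possible because no number is shared between PTU and PTU+TH.

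The estimates that turned sign were not called, and most lay near 0, with Idh1/Idh2 (0.22) and Hk2 (-0.15) as the largest. With voom the log2 values were Gpi1 -0.005, Pkm 0.036, Ldha 0.117, Pdk4 0.123 and Idh1 0.011. In the 6 libraries the log2 values were Gpi1 -0.016, Aldoa -0.007, Dld 0.092, Pdk3 0.007, Me1 -0.059, Idh1/Idh2 -0.094, Suclg2/Sucla2 -0.097 and Me1/Me2 -0.093. With library totals the log2 values were Aldoa -0.009 and Pgk1 -0.012. With the covariate the log2 value of Pdk4 was 0.056. With 1 library left out they ranged over Hk2 -0.952 to 0.238, Gpi1 -0.073 to 0.112, Aldoa -0.031 to 0.189, Aldoc -0.219 to 0.133, Pgk1 -0.058 to 0.13, Pgam1 -0.021 to 0.352, Pkm -0.035 to 0.086, Ldha -0.217 to 0.266, Pdha1 -0.027 to 0.373, Dld -0.125 to 0.015, Pdk2 -0.029 to 0.165, Pdk3 -0.082 to 0.005, Pdk4 -0.347 to 0.283, Idh1 -0.227 to 0.136, Me2 -0.011 to 0.073, Suclg2/Sucla2 -0.107 to 0.193, Aldoc/Aldoa -0.229 to 0.062 and Me1/Me2 -0.003 to 0.201.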

Other observations

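Glycogen, the glucose store, is made by glycogen synthase and branching enzyme and broken down by phosphorylases. Of 12 genes tested, 4 were above 0 and 8 below, 0 were called higher and 1 lower, against 48.6% of all genes above 0, 1.49% called higher and 0.634% called lower. Pygl, the liver-type phosphorylase, stood at 3.90, 3.35, 2.03 and 3.50 CPM across PTU mice, against 1.43, 1.44, 1.55 and 1.10 CPM across PTU+TH mice. Without overlap, Pygl fell from 3.19 ± 0.81 to 1.38 ± 0.20 CPM (SD over 4 mice a group; log2 fold -1.21 ± 0.27 SE, adjusted p = 0.0355 by edgeR). The call is on a gene with 450 counts in all and held under 6 of 15 alternatives. Its log2 fold change stayed between -1.37 and -1.10 under these 15. The call was lost with library totals only (0.0641), in the 6 libraries with Y-linked counts (0.303) and in the fits without PTU mouse 9 (0.0654), 10 (0.0943) or 12 (0.0928) or without any one PTU+TH mouse (0.088 for mouse 13, 0.0937 for mouse 14, 0.0839 for mouse 15 and 0.116 for mouse 16). The other 11 genes of the list were not called. Among those that build glycogen, Gys1, Gbe1, Gyg and Ugp2 had log2 fold changes of 0.34, 0.44, -0.06 and -0.04 (adjusted p = 0.161, 0.19, 0.944 and 0.951 by edgeR). The phosphorylases Pygb and Pygm had -0.14 and -0.10 (adjusted p = 0.571 and 0.898 by edgeR). These genes were named after their values were seen.

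In the pentose phosphate pathway 8 of 9 genes were tested and 0 were called. The smallest p was that of Pgls, the lactonase, with 52.3 to 62.4 CPM in PTU and 41.2 to 59.0 CPM in PTU+TH (log2 fold -0.22 ± 0.11 SE, adjusted p = 0.46 by edgeR). G6pdx, the entry enzyme of that pathway, lies wholly inside Ikbkg and was listed at 0 in all libraries, so it could not be measured. Gluconeogenesis had 3 of 4 genes tested and 0 called. Pck2, the mitochondrial form of PEP carboxykinase, lay between 31.2 and 35.5 CPM in PTU and between 27.9 and 30.3 CPM in PTU+TH, without overlap (log2 fold -0.18 ± 0.09 SE, adjusted p = 0.474 by edgeR). Slc16a1, a lactate carrier that endothelium expresses strongly, was named after its values were seen. It was highest in PTU mouse 10, at 82.3 CPM, the library in which the endothelial markers also summed highest, at 152.3 CPM. A link between Slc16a1 and these markers was not tested.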
